A study of Mus musculus with 6 samples.

Results

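The cytosolic ribosomal protein genes encode the protein part of the ribosome, the particle that translates mRNA in every cell. They were taken by name from the RNA-seq table of bone marrow monocytes: Rpl or Rps followed by a number and at most 1 letter or l, together with Rplp0, Rplp1, Rplp2 and Rpsa. This gave 82 of the 49585 genes of the table, 50 of the large and 32 of the small subunit. Processed pseudogenes whose names carry -ps (276 genes, of which 9 were above 0, with sums of 5.1 to 14.2 normalized counts per library) and 10 ribosomal protein S6 kinase genes were left out, as were 10 further genes that the name rule does not reach, such as Rps3a1 and Rpl36al.

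The large subunit joins amino acids and the small subunit reads the mRNA, and each ribosome holds a single copy of nearly every ribosomal protein. The genes are therefore expressed together and at high levels, and free surplus protein is broken down. Their mRNAs begin with a C followed by pyrimidines, the 5′ terminal oligopyrimidine (TOP) tract, through which mTOR and LARP1 set how much of them is translated, so that a change in translation need not show in the mRNA level.

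Monocytes of Sykdel/del mice were set against those of Syk+/+ mice, and both genotypes also carried Rosa26CreER(T2)+/+. Syk encodes spleen tyrosine kinase, which passes on signals from immune receptors. All mice had received 8 weeks of high-fat diet. The methods of the study describe a Syk flox/flox line in which oral tamoxifen at the age of 7 to 8 weeks activates the Cre. Since the Cre stands at Rosa26, the deletion is not limited to monocytes. Monocytes were purified from bone marrow with an isolation kit, and 3 libraries were sequenced per genotype. A legend of the study gives the same number as n per group of mice, while the labels do not say whether each library is a mouse of its own. If not, p-values would cover technical spread alone.

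The values are normalized counts, the reads of a gene times 1 factor per library, and are not divided by gene length. The libraries held 4168626 to 6254375 reads assigned to genes in Sykdel/del and 6805111 to 7071823 in Syk+/+. Syk itself had 4794, 5094 and 4712 normalized counts in Sykdel/del and 4463, 5527 and 5427 in Syk+/+, which overlap; exons outside the deleted stretch can still be read, so this level is no check of the genotype labels. Of the markers of non-classical monocytes 5 of 8 were lower in Sykdel/del at an adjusted p under 0.05 (limma, 6 libraries), with summed levels of 6685 to 8697 in Sykdel/del and 10308 to 13722 in Syk+/+. Of the 5 macrophage markers 4 were lower and 0 higher at an unadjusted p under 0.05 and 0 passed the adjusted threshold by limma, with summed levels of 1080 to 1264 in Sykdel/del and 1423 to 1570 in Syk+/+. The 8 classical monocyte markers were all detected, with summed levels of 100054 to 111782 in Sykdel/del and 89920 to 100834 in Syk+/+, and the B cell marker Ms4a1 was at 0 in all libraries. In bulk RNA, fewer cells of a type and less RNA per cell cannot be told apart.

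Short sequence words known for this family were common at the start sites of the genes. RefSeq windows of 250 bases before to 50 bases after the annotated start (GRCm38.p6) were matched for 60 of the 82 genes. CTTTC or CTTTT, letters typical of a TOP tract, stood on the gene's strand between 25 bases before and 50 bases after the start in 39 genes (65%), against 18.5% of all 27025 genes with a window, and on the other strand in 9 (15%) against 17.8%. CCGGAAG, the core of ETS family binding sites, stood on either strand of the window in 25 genes (41.7%) against 9.93% of all genes. The following stretches belong to members on whose levels the results turn, and capitals mark CTTTC or CTTTT. Each is 30 bases long and is read 5′ to 3′ on the strand of the gene.
Rpl4, the gene with the highest level, chr9:64173358-64173387, plus strand: caagtgacaagtCTTTCcttttcctgtggg
Rps15a, the gene with the lowest p, chr7:118116141-118116170, minus strand: ccggcccactctCTTTCtgccatcttccct
Rpl35a, the largest increase at a mean of at least 10, chr16:33056472-33056501, plus strand: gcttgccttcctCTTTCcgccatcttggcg
Rps21, the most lowered in a single library at a mean of at least 10, chr2:180257399-180257428, plus strand: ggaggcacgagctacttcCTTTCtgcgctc
Rps12, nearly without reads, chr10:23787183-23787212, minus strand: gccaccgccggcCTTTTcccctgccgccgc
In Rpl4 and Rps15a the word lay just before the annotated start, 17 and 11 bases upstream. In Rps21 it lay 38 bases after an annotated start, but upstream of a further annotated start of that gene. A match describes the letters and is neither a start site nor a binding site. Members with the TOP word (37 with a mean of at least 200) had a median log2 fold change of 0.04, and the 18 whose window lacked it had 0.02, a difference that was not tested.

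Nearly every member was expressed strongly. Of the 82 genes 75 had a mean of at least 200 normalized counts and 61 of at least 1000, while Rpl27 lay in between and 6 had a mean under 10. The highest was Rpl4, a large subunit protein that lines the exit tunnel of the ribosome, with 5751, 7094 and 7697 normalized counts in Sykdel/del 1, 2 and 3 and 7049, 5836 and 6860 in Syk+/+ 1, 2 and 3. Rplp0, the base of the acidic stalk that recruits translation factors, followed with 4566, 5594 and 6628 in Sykdel/del and 5514, 4720 and 5404 in Syk+/+. In both genes the genotypes overlapped, and Sykdel/del 1 was the lowest and Sykdel/del 3 the highest of the 6 libraries. Rps9, Rpsa and Rpl8 came next, with means of 4535, 4454 and 3728 in Sykdel/del and 4410, 4102 and 3783 in Syk+/+. Per 1000 bases of mRNA, the highest mean levels over all libraries were those of Rps9 (5955), Rps28 (4676) and Rpl32 (4675 normalized counts per kb). The order of the genes by level hardly changed between libraries: the rank correlation over the 75 genes was 0.95 to 0.99 in the 15 pairs of libraries, a description of genes that share each library.

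Within the acidic stalk, Rplp1 had 1228, 1851 and 2168 in Sykdel/del and 1498, 1624 and 1822 in Syk+/+, and its partner Rplp2 had 1436, 1720 and 1941 in Sykdel/del and 1556, 1427 and 1714 in Syk+/+. Both overlapped between genotypes, with log2 fold changes of 0.05 (SE 0.16) and 0.11 (SE 0.11). Rpl5 and Rpl11, which leave the ribosome with 5S rRNA to bind Mdm2 when ribosome assembly fails, averaged 1470 ± 351 and 1672 ± 445 in Sykdel/del and 1410 ± 132 and 1653 ± 171 in Syk+/+ (SD, n = 3 each). Rps6, the small subunit protein that is phosphorylated downstream of mTOR, had 1167, 1495 and 1679 in Sykdel/del and 1370, 1179 and 1352 in Syk+/+, again overlapping. Rps19 and Rps14, whose loss impairs red cell formation in human disease, averaged 1591 ± 259 and 1717 ± 393 in Sykdel/del and 1680 ± 32.9 and 1651 ± 121 in Syk+/+. In all of these the SD was larger in Sykdel/del, and the difference of the means was below it. Rpl41, which encodes one of the shortest known proteins, had a log2 fold change of 0.03 (SE 0.13).

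The 6 members with a mean under 10 were, apart from Rps12, paralogs of restricted expression or annotated pseudogenes. Rpl10l, a testis paralog of Rpl10, and Rps4l, annotated as a pseudogene, were at 0 in all 6 libraries, which allows at most 3 reads per library or 4.68 normalized counts in the shallowest. Rpl39l, a testis paralog of Rpl39, had 0, 1 and 1.6 in Sykdel/del and 0 in the 3 Syk+/+ libraries, and Rpl3l, the paralog of Rpl3 in heart and skeletal muscle, had 0, 1 and 0 in Sykdel/del and 0, 1.9 and 4.6 in Syk+/+. These are at most 5 reads in a library, too few for a comparison, while Rpl10, Rpl39 and Rpl3 themselves averaged 551, 534 and 2676 in Sykdel/del and 503, 475 and 2357 in Syk+/+. Rpl6l, also an annotated pseudogene, had 3.3, 2.1 and 1.6 in Sykdel/del and 0, 1 and 5.5 in Syk+/+. Rps27l, a paralog of Rps27 that is a p53 target, was well expressed, with 220, 217 and 231 in Sykdel/del and 220, 172 and 224 in Syk+/+, where Rps27 averaged 1538 ± 430 in Sykdel/del and 1482 ± 124 in Syk+/+.

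Rps12 and Rpl27 were low, although both proteins are regular parts of the ribosome. Rps12 (chr10:23785183-23787275, minus strand, GENCODE M21 on GRCm38) had 0, 0 and 9.4 in Sykdel/del and 0 in all 3 Syk+/+ libraries, that is, 6 reads in Sykdel/del 3 alone. Rpl27 (chr11:101442298-101445529, plus strand) had 39.9, 50.1 and 26.5 in Sykdel/del and 56.1, 32.6 and 43.4 in Syk+/+, and the genotypes overlapped. Of the sequence words of 50 bases in the Rps12 mRNA 90.1% occur also in transcripts of other genes, and 64.1% of those of Rpl27. Of all 82 genes 79 shared at least 1 such word and 43 shared over 50%. The 75 genes with a mean of at least 200, which leave out Rps12 and Rpl27, had a median of 52.1%. Among those 75 the shared percentage and the level per kb had a rank correlation of -0.03. The part of shared sequence in the low levels of Rps12 and Rpl27 was not tested. How the authors counted reads that match several genes is not given in the sources used here, so the level of any member with close copies is uncertain.

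No ribosomal protein gene passed the test for a difference between the genotypes. The filter on low values, which asks for 3 or more libraries with a normalized count of 1 or more, was passed by 78 of the 82 genes, and 0 of them had an adjusted p under 0.05 by limma with Benjamini-Hochberg adjustment over 14023 genes, where 0.371% of all genes did (0.0214% higher and 0.349% lower in Sykdel/del). The lowest adjusted p among them was 0.95. At an unadjusted p under 0.05, 0 members were higher and 0 lower, against 1.94% and 3.32% of all genes, and limma-voom on the reads also found 0 at either threshold. The median log2 fold change of the members was 0.03, against 0.00 over all genes tested, and 76 of 78 lay within 0.25 of 0, compared with 72.2% of all genes. The 2 exceptions were Rpl3l and Rpl6l, with at most 6 reads in a library. These shares are not matched for level: 75 members but 5653 of the 14023 genes had a mean of at least 200. The median standard error was 0.13 in the members and 0.16 over all genes. By subunit, the median was 0.03 for the 48 large and 0.04 for the 30 small subunit genes. The fold change was above 0 in 52 members and below 0 in 26, and 50.3% of all genes were above 0. The sign of the median rested on single libraries: it was 0.20 without Sykdel/del 1, -0.11 without Sykdel/del 3 and -0.03 without Syk+/+ 2.

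**Figure D1:**
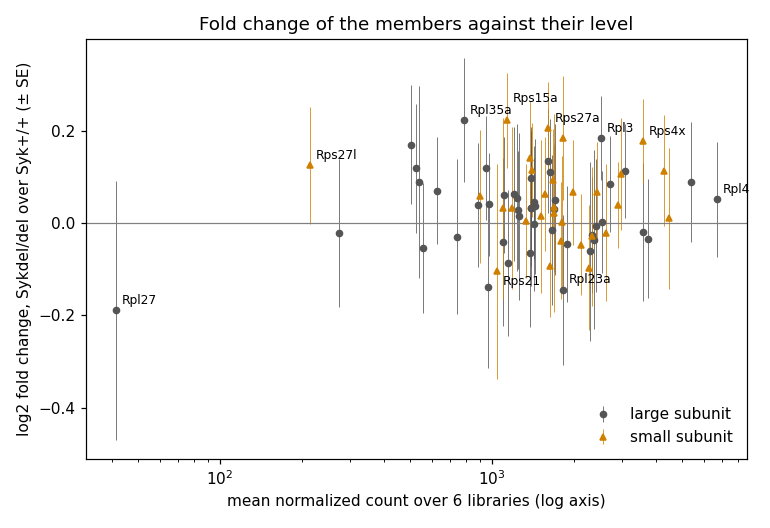
Log2 fold change of Sykdel/del over Syk+/+ (y axis, with its standard error) against the mean normalized count over 6 libraries (x axis, log scale) for the 76 members with a mean of at least 10, by subunit. All lie between -0.19 (Rpl27) and 0.22 (Rpl35a), and the median standard error is 0.13.

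Among members with a mean of at least 10, the largest increase was that of Rpl35a, a large subunit protein mutated in Diamond-Blackfan anaemia. It had 684, 840 and 1042 in Sykdel/del and 715, 658 and 800 in Syk+/+, a log2 fold change of 0.22 (SE 0.13, unadjusted p = 0.12, adjusted p = 1.00 by limma), and the genotypes overlapped. Rps15a, a small subunit protein, had 1048, 1239 and 1384 in Sykdel/del and 1048, 1003 and 1076 in Syk+/+. Sykdel/del 2 and 3 were above all Syk+/+ libraries and Sykdel/del 1 was not, and the log2 fold change was 0.22 (SE 0.10, unadjusted p = 0.051, adjusted p = 0.95 by limma). Rps27a, which is made as a fusion with ubiquitin, had 1611, 1658 and 1912 in Sykdel/del and 1631, 1349 and 1515 in Syk+/+. Here Sykdel/del 1 lay just below Syk+/+ 1, and the log2 fold change was 0.20 (SE 0.10, adjusted p = 0.97 by limma). Rps25, needed for initiation at some viral internal ribosome entry sites, averaged 1953 ± 417 in Sykdel/del and 1699 ± 165 in Syk+/+.

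In 2 members every Sykdel/del library lay above every Syk+/+ library, and in 0 members below. Over all genes tested 4.94% were separated in the higher and 5.19% in the lower direction, so 2 of 78 (2.56%) and 0 are not above the background. One was Rpl3, which helps to shape the peptidyl transferase centre, with 2536, 2654 and 2839 in Sykdel/del and 2397, 2175 and 2501 in Syk+/+. The gap between the nearest libraries was small, and the log2 fold change was 0.18 (SE 0.09, adjusted p = 0.97 by limma). The other was Rps4x, the X-linked form of a small subunit protein (chrX:102184941-102189394, minus strand), with 3561, 3789 and 4051 in Sykdel/del and 3449, 3167 and 3454 in Syk+/+, a log2 fold change of 0.18 (SE 0.09, adjusted p = 0.98 by limma).

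The largest decreases were no better separated. After Rpl27 (log2 fold change -0.19, SE 0.28) came Rpl23a, which sits at the exit of the tunnel and binds the signal recognition particle, with 1224, 1873 and 2176 in Sykdel/del and 1985, 1736 and 1952 in Syk+/+. Its log2 fold change was -0.14 (SE 0.16), and the Sykdel/del libraries lay on both sides of those of Syk+/+. Rpl22, a protein whose loss in mice mainly affects T cells, had 644, 1020 and 1122 in Sykdel/del and 1172, 854 and 985 in Syk+/+, and also -0.14 (SE 0.17). Rps21 and Rps26, of the small subunit, followed with -0.10 (SE 0.23 and 0.13). In Rpl23a, Rpl22, Rps21 and Rps26 alike, Sykdel/del 1 was the lowest of the 6 libraries.

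**Figure D2:**
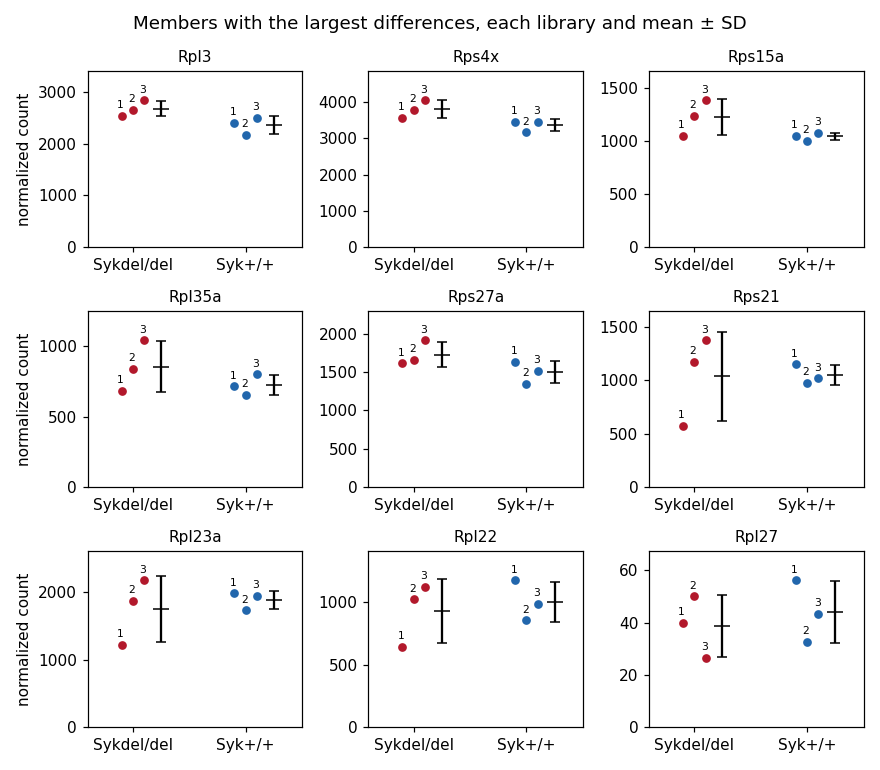
Normalized counts (y axes from 0) of 9 members in each library, numbered by replicate, Sykdel/del left and Syk+/+ right, with the mean ± SD of 3 libraries beside the points. Only in Rpl3 and Rps4x do the genotypes not overlap. In Rps21, Rpl23a and Rpl22 Sykdel/del 1 lies far below the other 5 libraries.

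Read as a set, the members differed more among the Sykdel/del libraries than between the genotypes. They took 1.71%, 2.19% and 2.53% of all normalized counts in Sykdel/del 1, 2 and 3, and 2.16%, 1.88% and 2.13% in Syk+/+ 1, 2 and 3, a mean of 2.14 ± 0.410% in Sykdel/del and 2.06 ± 0.154% in Syk+/+ (SD, n = 3 each). The lowest and the highest library were both Sykdel/del and differed by 1.48 times, with the 3 Syk+/+ libraries in between. The 95% Wilson intervals were 1.70 to 1.72% in Sykdel/del 1 and 2.51 to 2.54% in Sykdel/del 3 and cover counting error only, not the spread between samples. The subunits moved together. The large subunit took 1.22 ± 0.241% in Sykdel/del and 1.18 ± 0.0962% in Syk+/+ and the small subunit 0.919 ± 0.169% in Sykdel/del and 0.876 ± 0.0579% in Syk+/+, and the ratio of large to small stayed between 1.30 and 1.37 in all 6 libraries.

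**Figure D3:**
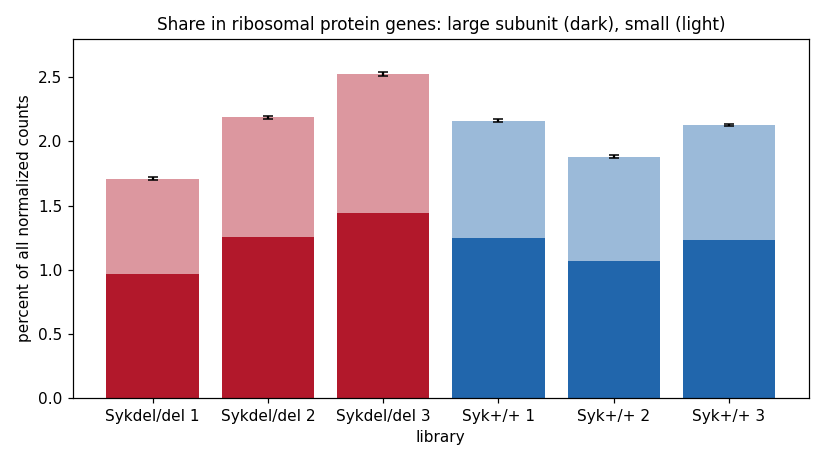
Share of all normalized counts in the 82 members (y axis, percent, from 0) in each library, Sykdel/del in red and Syk+/+ in blue, with the large subunit dark and the small subunit light. Bars at the top are 95% Wilson intervals of the sum. Sykdel/del 1 is lowest at 1.71% and Sykdel/del 3 highest at 2.53%.

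The shift ran through the family gene by gene. Each member's log2 level in a library was set against its median in the other 5 libraries, for the 76 members with a mean of at least 10. The median deviation was -0.37, 0.07 and 0.28 in Sykdel/del 1, 2 and 3 and 0.02, -0.21 and 0.02 in Syk+/+ 1, 2 and 3, while over all 14023 genes tested it was between -0.01 and 0.01 in every library. Sykdel/del 1 was below 0 in 74 of the 76 members and was the lowest of the 6 libraries in 55. Sykdel/del 3 was above 0 in 75 and the highest of all in 69, and Syk+/+ 2 was below 0 in 75. Rpl27 was the exception in Sykdel/del 3, at -0.69. Rpl3 and Rps4x were the exceptions in Sykdel/del 1, at 0.02 and 0.04. These are also the 2 members whose genotypes did not overlap, a separation that itself puts Sykdel/del 1 above the median of the other libraries.

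**Figure D4:**
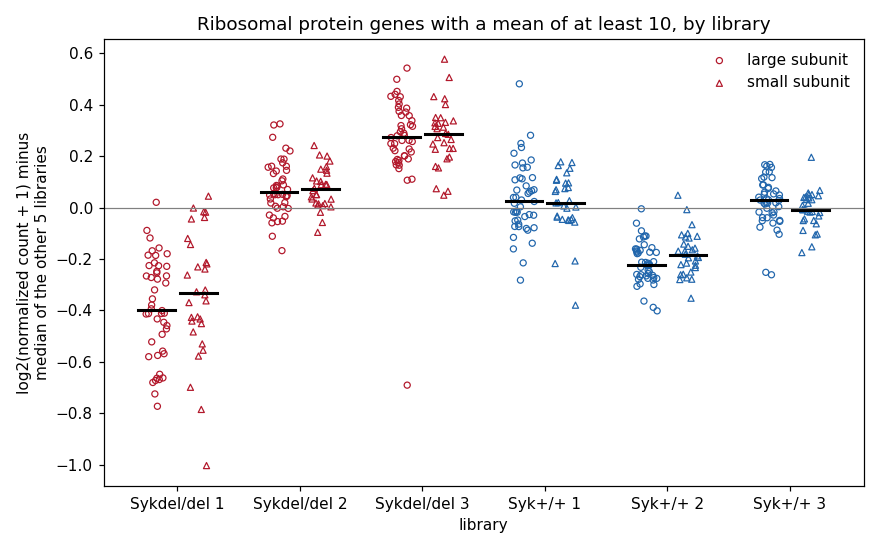
Deviation of each of the 76 members with a mean of at least 10 from its median in the other 5 libraries (y axis, log2), by library, with circles for the large and triangles for the small subunit and a bar at each median. The cloud of Sykdel/del 1 lies below 0, that of Sykdel/del 3 above 0 except for Rpl27, and that of Syk+/+ 2 below 0.

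Among these 76 members the single deviation over 1 on the log2 scale was that of Rps21, a small subunit protein, at -1.004 in Sykdel/del 1. It had 572, 1168 and 1372 in Sykdel/del and 1148, 976 and 1017 in Syk+/+. Sykdel/del 1 lay apart below the other 5 libraries, and Sykdel/del 2 and 3 lay above all of Syk+/+. Chosen after their values were seen, the next lowest in Sykdel/del 1 were Rps29, at -0.79, Rpl19, at -0.77, and Rpl13a, at -0.73. Rps29 had 1051, 1875 and 2321 in Sykdel/del and 1392, 1730 and 1812 in Syk+/+, and so was the lowest in the first and the highest in the third Sykdel/del library. At the other end Rps15a and Rps27a deviated by only -0.04 and -0.02 in Sykdel/del 1 and Rps27l by 0.00. The members were thus lowered unequally in that library.

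The members also varied more within Sykdel/del than within Syk+/+. The median coefficient of variation of the 75 members with a mean of at least 200 was 19.8% in Sykdel/del and 8.39% in Syk+/+, and it was larger in Sykdel/del in 68 of 75. Over all 5653 genes tested at that level it was 8.15% in Sykdel/del and 7.04% in Syk+/+, and larger in Sykdel/del in 57.4%. It was highest in Rps21 (40.1% in Sykdel/del, 8.58% in Syk+/+) and lowest in Rps27l (3.36% in Sykdel/del, 14.1% in Syk+/+).

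Without Sykdel/del 1 most members were higher in Sykdel/del, and none was called. The remaining 2 Sykdel/del libraries were higher than the 3 Syk+/+ libraries in 76 of 78 members (median log2 fold change 0.20). In 38 members both Sykdel/del libraries lay above all of Syk+/+ and in 0 below, against 12.3% and 12.2% of the 13645 genes tested with these 5 libraries. At an unadjusted p under 0.05, 33 members were higher and 0 lower, against 3.90% and 4.63% of all genes, but 0 passed an adjusted p of 0.05 by limma. The lowest was that of Rpl36a, named here for that reason, with 340, 654 and 708 in Sykdel/del and 522, 466 and 540 in Syk+/+, and a log2 fold change of 0.42 without Sykdel/del 1 (SE 0.10, adjusted p = 0.072 by limma). With all 6 libraries Rpl36a had 0.09 (SE 0.21). Without Sykdel/del 3, 59 of the 78 members were lower, with a median of -0.11, where 49.6% of all genes were lower. When each library was instead centred on the median of the members, a setting chosen after seeing the data, 2 members were separated in the higher and 9 in the lower direction, against 1.79% and 4.76% of all genes under the same scaling. Again 0 passed an adjusted p of 0.05 by limma, and at an unadjusted p under 0.05 there were 0 higher and 0 lower, against 0.827% and 2.75% of all genes. That scaling moved the median of all genes to -0.07.

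Other short mRNAs moved with the members. Among other protein-coding genes with a mean of at least 200, the 57 with an mRNA of up to 600 bases had median deviations of -0.29, 0.03 and 0.17 in Sykdel/del 1, 2 and 3 and 0.09, -0.09 and -0.03 in Syk+/+ 1, 2 and 3. For the 24 members of that length the medians were -0.45, 0.09 and 0.34 in Sykdel/del and -0.02, -0.17 and 0.04 in Syk+/+. The 2067 other genes with an mRNA over 4000 bases went the opposite way, at 0.11 in Sykdel/del 1 and -0.07 in Sykdel/del 3. The members are short, with a median mRNA of 774 bases, and among themselves the deviation in Sykdel/del 1 had a rank correlation of 0.29 with mRNA length over 75 genes that share a library. The part of mRNA length in the shift of the members was not tested.

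**Figure D5:**
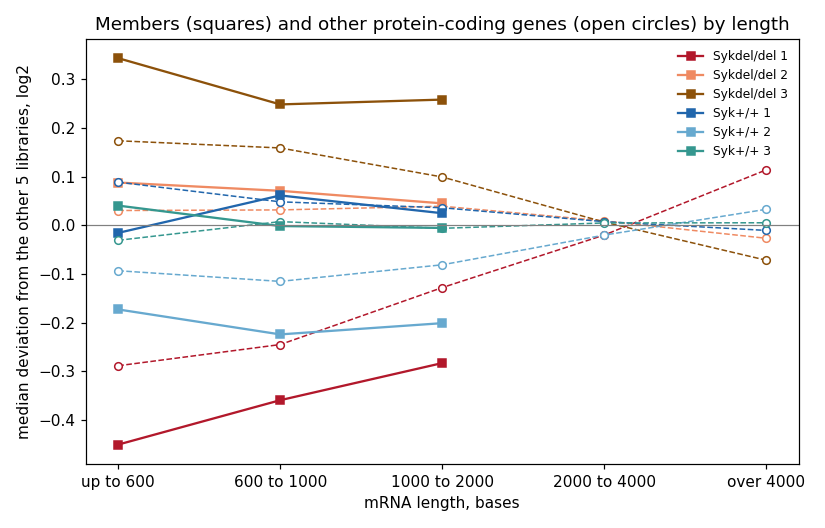
Median deviation from the other 5 libraries (y axis, log2) by mRNA length class (x axis, bases) in each library, for members (filled squares, 72 of the 75 with a mean of at least 200, since 3 are longer) and other protein-coding genes of the same level (open circles, dashed). In Sykdel/del 1 the shortest class is at -0.45 for members and -0.29 for other genes, and in Sykdel/del 3 at 0.34 and 0.17.

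Transcripts of the mitochondrial genome and markers of other cells also varied with these libraries. The mitochondrial genome took 0.516%, 0.755% and 0.850% of the counts in Sykdel/del 1, 2 and 3 and 0.904%, 0.739% and 0.687% in Syk+/+ 1, 2 and 3, so it too was lowest in Sykdel/del 1, but its highest library was Syk+/+ 1. Of its 37 genes 24 were at 0 in all libraries, mt-Rnr1 and mt-Rnr2 among them. While mt-Co1 averaged 15806 in Sykdel/del and 16614 in Syk+/+, mt-Co2 averaged only 10.9 and 12.2. The share is thus that of the genes that kept reads. Of the 8 granulocyte markers 7 had a mean of at least 10. Their median deviation was 1.06, 0.00 and -0.34 in Sykdel/del 1, 2 and 3 and 0.56, -0.68 and -0.11 in Syk+/+ 1, 2 and 3. They were thus opposite to the members in Sykdel/del 1 and 3, but low like the members in Syk+/+ 2. The summed level of the list was 2051 to 3230 in Sykdel/del and 2027 to 2792 in Syk+/+. All 8 were above 0 in some library, and Ly6g, the defining marker of mature neutrophils, was at 4.4, 4.2 and 1.6 in Sykdel/del and 3.7, 1.0 and 0 in Syk+/+. The 6 erythroid markers, none at 0 in all libraries, summed to 244, 430 and 552 in Sykdel/del and 865, 312 and 873 in Syk+/+. All 6 were lower in Sykdel/del, with a median log2 fold change of -0.65. At an unadjusted p under 0.05 by limma, 0 were higher and 2 lower, and 0 passed the adjusted threshold. Of the 7 B and plasma cell markers 5 were tested, 3 higher and 2 lower in Sykdel/del. At an unadjusted p under 0.05, 3 were higher and 0 lower, against 1.94% and 3.32% of all genes, and 0 passed the adjusted threshold by limma. The 3 with a mean of at least 10 had median deviations of -0.49, 0.36 and 0.69 in Sykdel/del 1, 2 and 3 and -0.23, -0.95 and 0.18 in Syk+/+ 1, 2 and 3. The 7 summed to 485 to 713 in Sykdel/del and 280 to 445 in Syk+/+. The part of these cells and of mitochondrial RNA in the shift of the members was not tested. Sykdel/del 3, where the members were highest, was the shallowest library.

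Genes that work with the ribosome were set beside the members. Of the 8 lists compared, 7 had a median log2 fold change that changed sign when one library was left out. Of 25 translation factors and other genes with TOP mRNAs, all tested, 0 passed an adjusted or an unadjusted p of 0.05 by limma. Their median log2 fold change was 0.05, and their median deviations of -0.25, 0.05 and 0.20 in Sykdel/del 1, 2 and 3 and 0.07, -0.17 and -0.03 in Syk+/+ 1, 2 and 3 were likewise lowest in Sykdel/del 1 and highest in Sykdel/del 3. Eif3m, a subunit of the initiation factor that binds the small subunit, had the smallest p of this list, with 447, 426 and 529 in Sykdel/del and 421, 397 and 388 in Syk+/+. All Sykdel/del libraries lay above those of Syk+/+, and the log2 fold change was 0.21 (SE 0.10, adjusted p = 0.97 by limma). The 7 tested ribosomal protein genes outside the name rule, among them Rps3a1 and Rack1, had a median log2 fold change of -0.07 and 0 calls. Rps3a1, a small subunit protein, had 2196, 2576 and 2900 in Sykdel/del and 2528, 2103 and 2414 in Syk+/+, and the genotypes overlapped.

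The machinery that makes ribosomes held no call either. Of 37 ribosome biogenesis factors 0 passed an adjusted p of 0.05 by limma, and their median log2 fold change was -0.02. At an unadjusted p under 0.05 by limma, 0 were higher and 1 was lower, against 1.94% and 3.32% of all genes. It was Gar1, a protein of the H/ACA particles that modify rRNA, with 26.6, 51.1 and 56.2 in Sykdel/del and 59.8, 77.8 and 61.8 in Syk+/+, a log2 fold change of -0.62 (SE 0.27, adjusted p = 0.87 by limma). Of 24 genes of RNA polymerases I and III, which transcribe rRNA and tRNA, 1 was higher and 0 lower at an unadjusted p under 0.05 by limma. The shares of all genes were again 1.94% and 3.32%. The 1 gene was Polr3e (log2 fold change 0.27, SE 0.11, adjusted p = 0.86 by limma), and the median of the 24 was 0.01. Of 18 regulators of growth and of TOP mRNAs, such as Mtor, Larp1 and Myc, 0 passed either threshold, with a median of -0.03. Myc had 117, 135 and 140 in Sykdel/del and 151, 203 and 135 in Syk+/+, and the genotypes overlapped. Of the 78 mitochondrial ribosomal protein genes, whose ribosomes translate the mitochondrial genome, 0 passed the adjusted threshold by limma. At an unadjusted p under 0.05 by limma, 1 was higher and 0 lower, against the same 1.94% and 3.32%. It was Mrpl27, with 83.1, 86.6 and 96.8 in Sykdel/del and 69.2, 58.6 and 62.7 in Syk+/+ (log2 fold change 0.48, SE 0.17, adjusted p = 0.63). The median of these genes was 0.01, and they deviated like the cytosolic genes but less, by -0.16 in Sykdel/del 1 and 0.19 in Sykdel/del 3.

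Small nucleolar RNAs (snoRNAs), which guide the modification of rRNA, are cut from introns of many ribosomal protein genes. By the GENCODE annotation 29 members host 56 snoRNAs, and Rpl4 hosts 5. The 28 hosts with a mean of at least 200 had a median log2 fold change of 0.05 and the 47 other members 0.03. In Sykdel/del 1 the hosts deviated by a median of -0.31 and the other members by -0.41. Of 11 tested snoRNA host genes that encode no ribosomal protein, 9 had a log2 fold change above 0, with a median of 0.23, and 0 passed an adjusted or an unadjusted p of 0.05 by limma. Snhg1 among them had 163, 226 and 270 in Sykdel/del and 180, 167 and 160 in Syk+/+ (log2 fold change 0.35, SE 0.16, adjusted p = 0.95). These host genes too were lowest in Sykdel/del 1 and highest in Sykdel/del 3, with median deviations of -0.28 and 0.46.

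The members lay on 19 chromosomes, 14 of them on chromosome 7. The 4 X-linked members, Rps4x, Rpl10, Rpl36a and Rpl39, all had a log2 fold change above 0, with a median of 0.14, and of these only Rps4x did not overlap between genotypes. Rpl39, a short protein of the exit tunnel, had 467, 521 and 615 in Sykdel/del and 535, 398 and 494 in Syk+/+, which overlapped, with a log2 fold change of 0.17 (SE 0.13, adjusted p = 1.00 by limma).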

How the data were processed

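Directional libraries depleted of rRNA were sequenced from both ends. CLC Genomics Workbench was used by the authors for mapping to mm10 and for counting per gene; its version, the annotation, the strand setting and the handling of ambiguous reads are not stated in what was used here. As deposited, values are log2(x + 1). The methods name TPM, but x was a read count times 1 factor per library (100% of values whole within 0.06 reads) and not scaled by gene length. The table also holds the authors' p-value per gene, which was not used.

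Limma (version 3.58.1, R 4.3.3, trend on the mean) was fitted to the 6 libraries with genotype as factor, over the 14023 genes that reached a normalized count of 1 in 3 or more libraries, with Benjamini-Hochberg adjustment and a threshold of 0.05, two-sided. Fold changes are on the log2(normalized count + 1) scale and understate changes of low genes. The fit was tested on simulated data. Coordinates and lengths are those of GENCODE M21 on GRCm38, matched by name for all 82 members, with 1 principal transcript per gene, and start windows are RefSeq's for GRCm38.p6. Annotated sequence was read with Python 3.11.15 and pandas 2.3.3.

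The members and gene lists were chosen with earlier results of these data known. Named members are those past the threshold, the 6 highest and 6 lowest levels, the 5 largest changes each way at a mean of at least 10, up to 6 not overlapping each way, deviations over 1, a list fixed by role, and from each other list the genes of smallest p, 3 at most. Some genes within this rule are not reported here. Alternatives were other pseudocounts (0.5 and 10), filters, scalings, limma without the trend, limma-voom on the recovered reads, thinned reads, a replicate block and leaving out each library. The count models planned for a table of raw counts were not run, although whole reads could be recovered.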

Additional observations from a re-analysis of the deposited data

How the results depend on the processing

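In all 19 alternatives 0 members passed an adjusted p of 0.05, the lowest being 0.072 without Sykdel/del 1. Without one library, the number of members at an unadjusted p under 0.05 ran from 0 to 33, the number without overlap from 2 to 38 and the median log2 fold change from -0.11 to 0.20. Over all genes in the same fits 3.30 to 8.53% were at an unadjusted p under 0.05 and 16.6 to 24.5% did not overlap. The highest of each came without Sykdel/del 1, and the lowest median without Sykdel/del 3. Under the other settings the median was -0.04 to 0.04. The number at an unadjusted p under 0.05, 0 as reported, was 1 without a filter, 1 with upper-quartile scaling, 1 with thinned reads and 2 with quantile normalization. Over all genes in those fits the shares were 5.12%, 5.35%, 5.39% and 5.38%. Members without overlap, 2 as reported, were 1 with thinned reads and 11 when libraries were centred on the members, a setting added after seeing the data. Of all genes 10.5% and 6.55% did not overlap in those fits. The deviations over 1 on the log2 scale, 1 as reported, were 0 with a pseudocount of 10 and 0 with upper-quartile scaling. The cause of these changes was not tested.

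With the replicate number as a block, 1 member was at an unadjusted p under 0.05, against 5.47% of all genes, and 0 passed the adjusted threshold. Libraries of the same number had correlations of 0.02, 0.04 and -0.03 in their deviations from the group means, and libraries of unlike number -0.05 to 0.03. The values give no sign of pairing by number, but they cannot show whether samples were handled in pairs.

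The share of the members was 1.90, 2.42 and 2.79% in Sykdel/del and 2.39, 2.07 and 2.35% in Syk+/+ without the mitochondrial genome and the 10 highest other genes, and 1.39, 1.80 and 2.07% in Sykdel/del and 1.77, 1.55 and 1.74% in Syk+/+ without the 5 most abundant members. With genes outside the name rule it was 1.84, 2.35 and 2.71% in Sykdel/del and 2.32, 2.02 and 2.28% in Syk+/+. The order of the libraries was the same in each.

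The 553 values of 31 named members under the alternatives moved by less than the larger genotype's SD between libraries, as did the 144 medians of the 8 other lists. For a single member this had to be so when a library was left out, since dropping a library from 3 cannot move a mean by that SD. It is therefore no measure of stability. In 7 of the 8 other lists the median changed sign without one library. It ran from -0.12 (without Syk+/+ 2) to 0.12 (without Sykdel/del 1) in the genes outside the name rule and from -0.04 (without Sykdel/del 3) to 0.14 (without Sykdel/del 1) in the translation factors. In the snoRNA host genes it ran from 0.00 (without Syk+/+ 2) to 0.32 (without Sykdel/del 1). Scaling by trimmed means and the count models planned for raw counts were not run, although whole reads could be recovered. With 3 libraries per genotype and a median standard error of 0.13 in the members, changes of that size were not detectable.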
